A study of Rattus norvegicus with 9 samples.

Results

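The miR-26 family comprises miR-26a and miR-26b, small regulatory RNAs that share 1 targeting sequence and are cut from hairpins lying within genes for the Ctdsp phosphatases. Its members were taken as every entry of the deposited count table named miR-26a or miR-26b, with either arm. This rule found 4 of 633 listed miRNAs, namely rno-miR-26a-5p, rno-miR-26a-3p, rno-miR-26b-5p and rno-miR-26b-3p, written below without the rat prefix. The rule uses names and no measured value, although the family was taken up with earlier results of these data known. All 4 had enough counts to be tested, although miR-26a-3p passed the count filter in 5 of 9 libraries, of which 3 were VEH, 2 MK-801 and 0 MK-801+CLO.

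Small RNA had been sequenced from the hippocampus of Sprague-Dawley rats, with 3 libraries in each of 3 groups. The vehicle group (VEH) was injected with saline throughout. The MK-801 group was given 0.2 mg/kg MK-801 daily for 14 days and saline for 7 further days. MK-801 (dizocilpine) blocks the channel of the NMDA glutamate receptor and is used to produce schizophrenia-like behaviour in rodents. The MK-801+CLO group had the same 14 days of MK-801 and then 10 mg/kg clozapine (CLO), an atypical antipsychotic drug, for 7 days, so that no group had clozapine without MK-801. The labels state postnatal day 21 as the age and a start of treatment at 5 weeks, after 14 days of habituation. Each group held 10 rats, and the labels do not say how many rats went into a library. The p-values therefore rest on differences among these 9 libraries, part of which may be technical. Because whole hippocampus was used, fewer cells of a type and less of a miRNA per cell cannot be told apart.

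A microRNA guides Argonaute proteins to messenger RNAs whose untranslated tails pair with its seed, bases 2 to 8 from the 5′ end, and lowers the output of those messages. One arm of each hairpin, the guide, is normally kept, and the other, the passenger, is normally degraded. MiR-26 is abundant in brain and many other tissues. Its known targets include the Ctdsp messages themselves, which encode small phosphatases that help the repressor REST to silence neuronal genes, as well as Ezh2. In hippocampal neurons miR-26a is known to act with miR-384-5p on the kinase Rsk3 in the upkeep of long-term potentiation.

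The 4 mature sequences are shown because the seed defines the family and the remaining bases decide which member a read is assigned to. They are RefSeq sequences of the GRCr8 rat assembly, identical to those in the deposited table for all 4 members, with the seed in capitals.
miR-26a-5p: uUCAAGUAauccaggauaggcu
miR-26b-5p: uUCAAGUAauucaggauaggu
miR-26a-3p: cCUAUUCUugguuacuugcac
miR-26b-3p: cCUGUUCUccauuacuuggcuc
Both 5p members carried the same seed, UCAAGUA, and no other listed miRNA shared it, whether bases 2 to 8 or the shorter stretch of bases 2 to 7 was compared. Counted from the 5′ end, the 5p members matched at 19 of 21 positions and differed by C11U and C21U, written with the miR-26a base first. MiR-26a-5p also had 1 more base, at 22 against 21 nucleotides. The 3p members matched at 14 of 21 positions. They differed inside the seed, by A4G, so that neither shared its seed with any other listed miRNA. Levels of the 5p members are uncertain as far as the authors' counting could have split reads between such close sequences.

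The hairpins are shown to place the arms, with both mature arms in capitals.
Mir26a hairpin: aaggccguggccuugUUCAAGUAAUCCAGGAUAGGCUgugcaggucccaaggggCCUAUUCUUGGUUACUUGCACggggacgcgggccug
Mir26b hairpin: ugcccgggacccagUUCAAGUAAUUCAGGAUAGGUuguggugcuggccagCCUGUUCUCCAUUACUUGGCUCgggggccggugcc
In the GRCr8 annotation Mir26a lay inside Ctdspl and Mir26b inside Ctdsp1, each on the strand of its host. Neither had another miRNA gene within 10 kb. In mouse and human an identical miR-26a-5p also comes from a gene within Ctdsp2, and counts of a mature sequence cannot tell such sources apart. No coordinates are given, because the submitters' processing notes name another assembly, Rnor_6.0.

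MiR-26a-5p held almost all of the family's reads. Of the counts assigned to the 4 members over 9 libraries, 99.5% were miR-26a-5p, 0.515% miR-26b-5p, 0.0120% miR-26b-3p and 0.000888% miR-26a-3p. Counts were scaled to counts per 1000000 miRNA counts of the library (CPM), and all entries were 18 to 25 bases long, so that levels of different miRNAs are compared without a length term. MiR-26a-5p averaged 90137 CPM and was the third most abundant of 633 miRNAs, below miR-181a-5p (127330 CPM) and above miR-9a-5p (84597 CPM). It held place 3 or 4 in every library. MiR-26b-5p averaged 463 CPM in place 102, between miR-23b-3p (468 CPM) and miR-382-5p (429 CPM). The passengers averaged 10.8 CPM for miR-26b-3p, in place 327 between miR-345-5p and miR-383-5p, and 0.745 CPM for miR-26a-3p, in place 455 between miR-3075 and miR-130a-5p. Apart from miR-26a-5p against miR-181a-5p, each member's range over the libraries overlapped that of its neighbours in this order.

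MiR-26a-5p, the main guide of the family, stood at similar levels in all 3 groups. In VEH it was at 93441, 86578 and 88175 CPM in replicates 1, 2 and 3, a mean of 89398 ± 3592 CPM (SD, n = 3). In MK-801 it was at 84414, 85872 and 90628 CPM, a mean of 86972 ± 3250 CPM (SD, n = 3). In MK-801+CLO it was at 88162, 100082 and 93881 CPM, a mean of 94042 ± 5962 CPM (SD, n = 3). The order of the means was MK-801+CLO, VEH, MK-801, and the values of each pair of groups overlapped. The highest single value belonged to MK-801+CLO replicate 2, and the lowest to MK-801 replicate 1.

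MK-801 was compared with VEH to ask whether the MK-801 course left a change in hippocampal miRNAs 7 days after its end. The log2 fold change of miR-26a-5p was -0.02 ± 0.09 (SE), with a 95% interval of -0.22 to 0.18 (adjusted p = 0.956, edgeR quasi-likelihood test with Benjamini-Hochberg adjustment over 469 miRNAs). Its sign turned under several settings, among them upper-quartile scaling (0.08). Setting MK-801+CLO beside MK-801 alone addressed the effect of adding clozapine, and there miR-26a-5p was at 0.15 ± 0.09 (interval -0.05 to 0.35, edgeR adjusted p = 0.680). For MK-801+CLO against VEH it was at 0.14 ± 0.09 (interval -0.06 to 0.34, edgeR adjusted p = 0.516). These last comparisons share the MK-801+CLO libraries. Without MK-801+CLO replicate 2 the values were 0.10 and 0.06, and without replicate 1 they were 0.22 and 0.20. Scaling moved them too, to 0.04 and 0.12 with upper-quartile factors and to 0.11 and 0.07 with library totals alone. Of 22 alternatives in each comparison 1, that without replicate 1, had an unadjusted p under 0.05 (edgeR). It gave 0.0356 and 0.0460 unadjusted, and 0.412 and 0.271 adjusted.

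**Figure D1:**
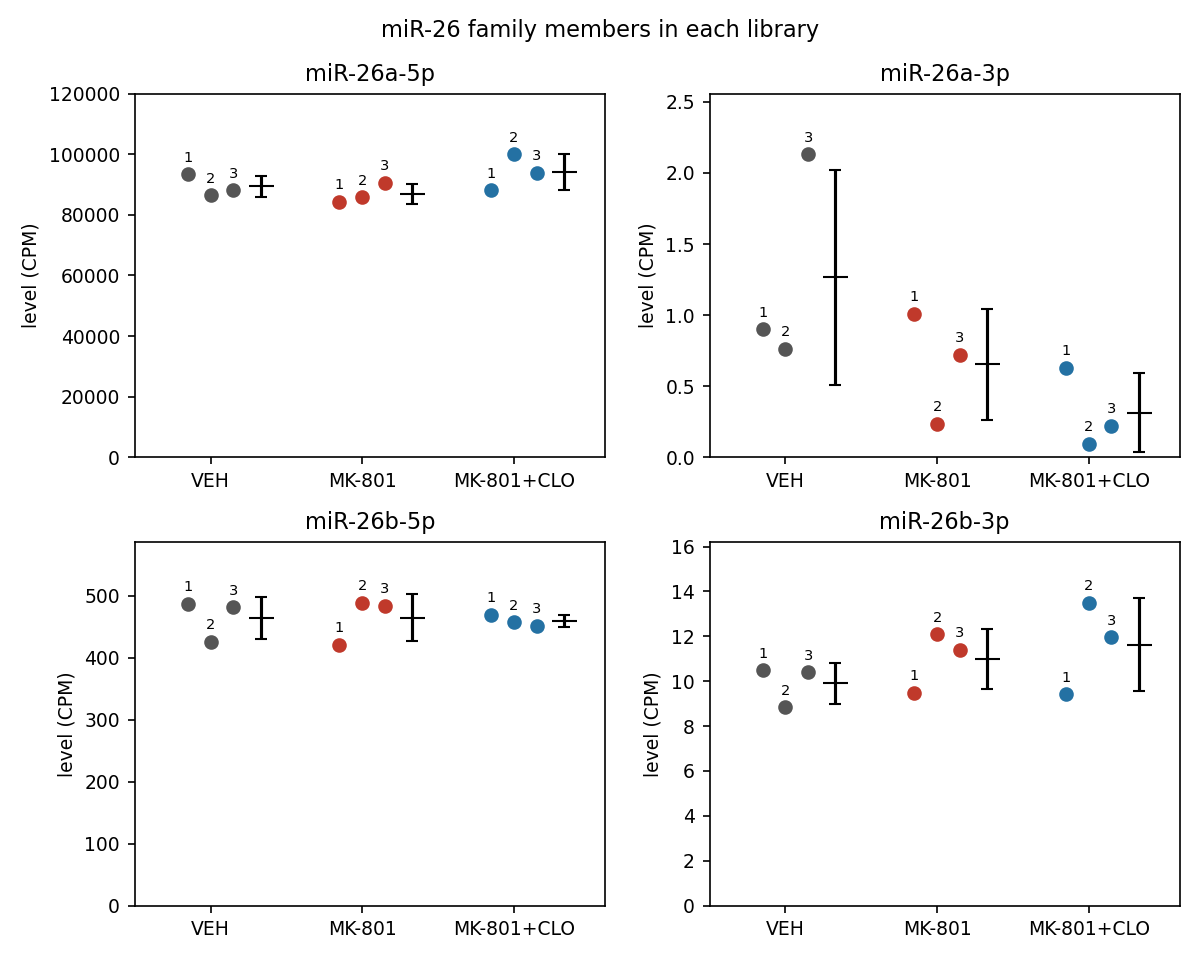
Level of each miR-26 family member in CPM (linear axes from 0) in the 3 groups, where each coloured point is 1 library with its replicate number beside it and black bars give the group mean ± SD (n = 3). MiR-26a-5p stays between 84414 and 100082 CPM in all 9 libraries, while miR-26a-3p ranges from 0.0938 to 2.13 CPM with its highest value in VEH replicate 3.

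No miR-26 member passed an adjusted p of 0.05 in any comparison, where edgeR called 0 of 469 miRNAs, or 0%, in each. At an unadjusted p under 0.05 edgeR had 24 miRNAs (5.12%) when MK-801 was compared with VEH. It had 39 (8.32%) when clozapine was compared with MK-801 alone, and 70 (14.9%) when it was compared with VEH. DESeq2 called 1, 2 and 11 miRNAs in the same order, none of them a miR-26 member, and limma voom called 0. The member with the smallest unadjusted p was miR-26a-3p for MK-801+CLO against VEH, in place 39 of 469 by p. It passed the count filter with 0 MK-801+CLO libraries, which itself favoured a low value there. A p that misses the threshold does not show equal levels, and the intervals give the sizes of change that these libraries leave possible.

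MiR-26b-5p, the second guide with the same seed, also showed no separation of the groups. It stood at 487, 426 and 481 CPM in VEH, a mean of 465 ± 33.7 CPM (SD, n = 3). It stood at 421, 489 and 484 CPM in MK-801, a mean of 465 ± 37.7 CPM (SD, n = 3). In MK-801+CLO the values were 470, 457 and 452 CPM, a mean of 459 ± 9.10 CPM (SD, n = 3). The 3 clozapine libraries thus lay inside the range of both other groups. Its log2 fold change was 0.02 ± 0.10 in MK-801 relative to VEH. With clozapine it was 0.02 ± 0.10 relative to MK-801 and 0.04 ± 0.10 relative to VEH. The edgeR adjusted p-values were 0.956, 0.957 and 0.871, and the interval of the fold between clozapine and MK-801 ran from 0.872 to 1.18. With library totals alone as the scale all 3 signs turned.

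**Figure D2:**
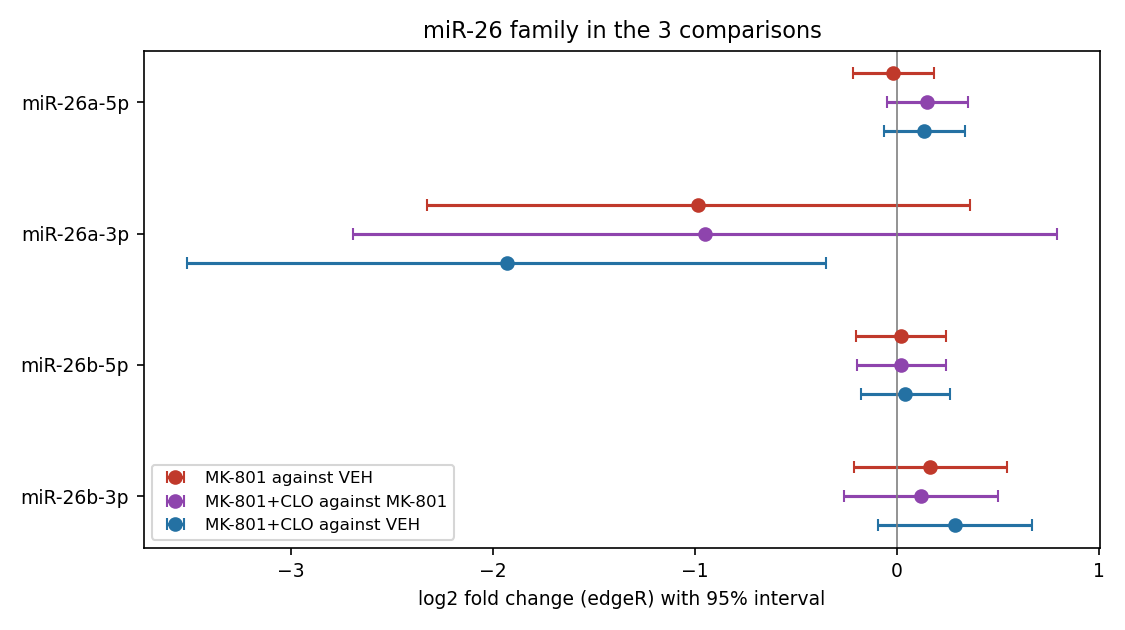
Log2 fold change (edgeR, TMM scaling) of each miR-26 member on the horizontal axis for the 3 comparisons, with points for the estimate and bars for its 95% interval. The intervals of the 5p members span 0 and stay within -0.22 to 0.35, the signs of some of their estimates turn with other scalings, and the wide intervals of miR-26a-3p rest on 1 to 39 counts per library.

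Taken as 1 seed family, the 5p members together made up 8.99% ± 0.36 of all counts in VEH, 8.74% ± 0.33 in MK-801 and 9.45% ± 0.60 in MK-801+CLO (SD, n = 3 each). This sum does not depend on how reads were divided between miR-26a-5p and miR-26b-5p. Over the 9 libraries it ran from 8.48% in MK-801 replicate 1 to 10.1% in MK-801+CLO replicate 2, and each pair of groups overlapped. No test was made of the sum.

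The share of the lesser guide within the family was also compared, as a ratio inside each library that needs no scaling between libraries. There were 5.21, 4.92 and 5.46 miR-26b-5p counts per 1000 miR-26a-5p counts in the VEH libraries. The MK-801 libraries had 4.99, 5.70 and 5.34, and the MK-801+CLO libraries 5.33, 4.57 and 4.81. The ratio was highest in MK-801 replicate 2 and lowest in MK-801+CLO replicate 2, and the groups overlapped in each comparison. Across the 9 libraries the log levels of the 2 guides had a Pearson correlation of 0.22 (Spearman 0.13), a description over libraries that share their totals.

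**Figure D3:**
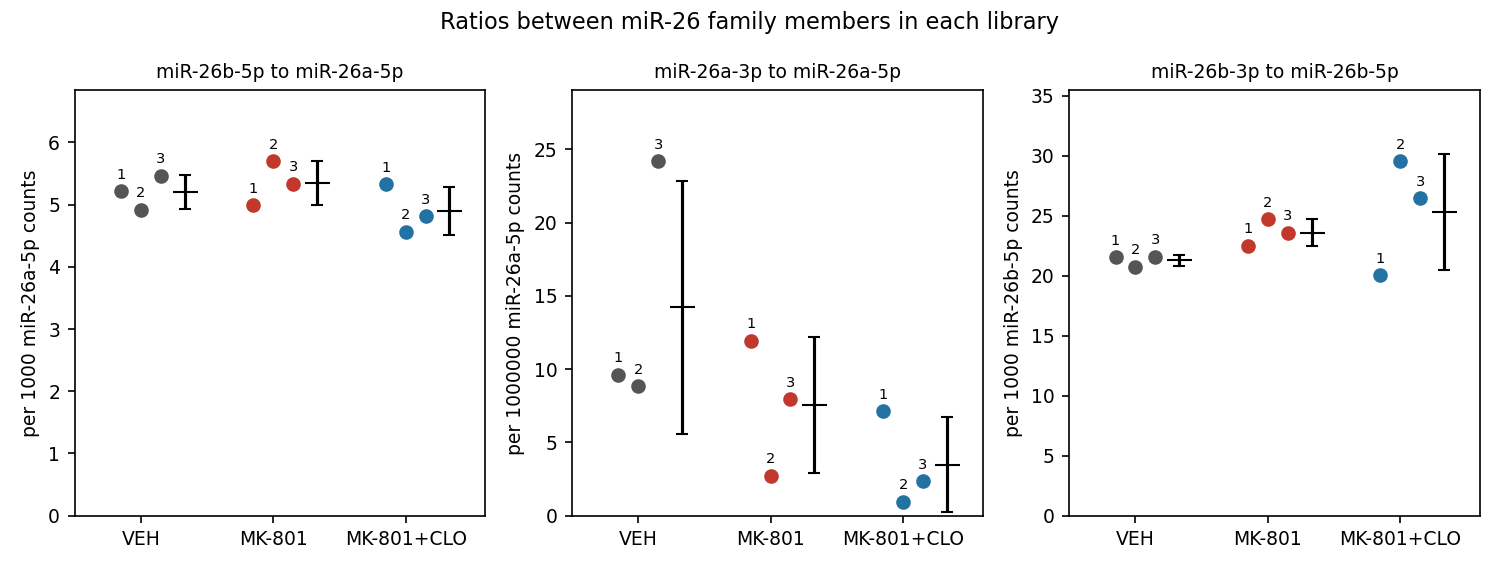
Count ratios between miR-26 members inside each library (linear axes from 0) for the 3 groups, with numbered points for the replicate libraries and bars in black for the group mean ± SD (n = 3). The ratio of miR-26b-5p to miR-26a-5p stays between 4.57 and 5.70 per 1000, while that of miR-26a-3p to miR-26a-5p ranges from 0.937 to 24.2 per 1000000.

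MiR-26b-3p, the passenger of the Ctdsp1 hairpin, was at 10.5, 8.84 and 10.4 CPM in VEH, from 175, 104 and 190 counts. In MK-801 it was at 9.48, 12.1 and 11.4 CPM, and in MK-801+CLO at 9.41, 13.5 and 12.0 CPM. The lowest treated libraries, replicate 1 of either drug group, lay within the VEH range. The group means were 9.90 ± 0.93, 11.0 ± 1.35 and 11.6 ± 2.06 CPM (SD, n = 3 each). The log2 fold change was 0.17 ± 0.17 in MK-801 relative to VEH. With clozapine it was 0.12 ± 0.17 relative to MK-801 and 0.29 ± 0.17 relative to VEH. The edgeR adjusted p-values were 0.841, 0.825 and 0.461. For MK-801+CLO against VEH the log2 fold change was 0.14 without MK-801+CLO replicate 2 and 0.44 without replicate 1. The fit without replicate 1 was the 1 of 22 alternatives with an unadjusted p under 0.05 (0.0196, edgeR adjusted p = 0.187).

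Relative to its own guide, miR-26b-3p had 21.5, 20.7 and 21.6 counts per 1000 miR-26b-5p counts in VEH and 22.5, 24.7 and 23.6 in MK-801. Every MK-801 library thus lay above every VEH library. This held for 8.9% of the 146 hairpins with both arms tested and counted in all libraries in that direction, and for 17.1% in either direction. The MK-801+CLO libraries had 20.0, 29.5 and 26.4 counts per 1000, spanning the range of both other groups. No test was made of this ratio, whose 3p counts per library numbered 104 to 206. Counting error alone would give such counts a spread of 8.10%. That is wider than the gap between 21.6 in VEH replicate 3 and 22.5 in MK-801 replicate 1.

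MiR-26a-3p, the passenger of the Ctdspl hairpin, was near the detection limit. The VEH libraries had 15, 9 and 39 counts, or 0.899, 0.765 and 2.13 CPM. The MK-801 libraries had 15, 4 and 11 counts, or 1.01, 0.235 and 0.721 CPM. The MK-801+CLO libraries had 8, 1 and 3 counts, or 0.628, 0.0938 and 0.221 CPM. All 3 clozapine values lay below the lowest VEH value, while MK-801 overlapped both other groups.

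Non-overlap of MK-801+CLO and VEH in the lower direction was found for 11.5% of tested miRNAs, and in either direction for 17.5%. The log2 fold change of miR-26a-3p was -1.93 ± 0.71 in that comparison (interval -3.51 to -0.35), with an unadjusted p of 0.0216 and an edgeR adjusted p of 0.254. Of the tested miRNAs, 7.46% were lower at an unadjusted p under 0.05. Because this member passed the count filter through 3 VEH and 2 MK-801 libraries alone, its inclusion itself favoured a lower value with clozapine. Inclusion also leaned on VEH more than on MK-801, so it may have favoured a lower value in MK-801 relative to VEH too. The log2 fold change was -0.98 ± 0.60 in MK-801 relative to VEH (adjusted p = 0.814, edgeR) and -0.95 ± 0.78 with clozapine relative to MK-801 (adjusted p = 0.726, edgeR). The latter ran from -1.87 without MK-801+CLO replicate 1 to -0.49 without MK-801 replicate 1, and was -0.32 by limma-trend on log2(CPM + 1).

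The value for MK-801+CLO against VEH moved with single libraries, VEH replicate 3 among them. In MK-801+CLO replicate 1 the 95% Wilson interval of the level ran from 0.318 to 1.24 CPM and in VEH replicate 2 from 0.402 to 1.45 CPM. These intervals overlap, although overlap alone does not place a difference within counting error. They belong to the closest libraries of the 2 groups, and the interval of VEH replicate 3, 1.56 to 2.92 CPM, lay above both. Without VEH replicate 3 the log2 fold change was -1.30 (adjusted p = 0.617, edgeR) for MK-801+CLO and -0.35 for MK-801, both relative to VEH. Other single libraries moved it as well, to -2.84 without MK-801+CLO replicate 1, and the unadjusted p was 0.0630 without MK-801+CLO replicate 2 and 0.0684 without replicate 3. Limma-trend on log2(CPM + 1), a scale that shrinks changes of low miRNAs, gave -0.74. Of 21 alternatives for MK-801+CLO against VEH 18 had an unadjusted p under 0.05 (edgeR, DESeq2 or limma), all on the same small counts. The adjusted p for MK-801+CLO relative to VEH ran from 0.185 to 0.643 over the alternatives that gave one. DESeq2 gave an unadjusted p of 0.0180 and no adjusted p, and at 10 CPM or more the member was not tested. VEH replicate 3 also stood apart in the sum of 6 miRNAs used as markers of choroid plexus and ependyma. These were miR-204-5p, miR-211-5p, miR-448-3p, miR-1298, miR-34b-5p and miR-34c-5p. Their summed level was 12373 CPM in VEH replicate 3 and 5783 and 3976 CPM in VEH replicates 1 and 2. It was 3633 to 4483 CPM in MK-801 and 2557 to 3841 CPM in MK-801+CLO, with none of the 6 at 0 in any library. The 6 did not all move alike. For MK-801+CLO against VEH 5 were lower and 1 was higher, each at an unadjusted p under 0.05 (edgeR). At that threshold stood 14.9% of all tested miRNAs, and 0 of the 6 passed the adjusted threshold. The part of these markers in the miR-26a-3p values was not tested.

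As a ratio, miR-26a-3p had 9.62, 8.83 and 24.2 counts per 1000000 miR-26a-5p counts in VEH, 11.9, 2.73 and 7.95 in MK-801 and 7.12, 0.937 and 2.36 in MK-801+CLO. The clozapine libraries lay below the VEH libraries here as well, as did 7.53% of the 146 hairpins in that direction and 15.8% in either. The numerator is the same small counts, so the ratio adds no separate evidence.

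The hairpins differed in how one-sided they were. Over all libraries miR-26a had 11755697 counts from its 5p arm and 105 from its 3p arm, or 8.93 minor-arm counts per 1000000. Among 200 hairpins with both arms listed and at least 90 counts together, this was the third smallest share, after miR-133b and miR-328a. MiR-26b had 60907 and 1416 counts, or 22720 per 1000000, in place 89 of 200 and near the median of 34860 per 1000000. The 5p counts of miR-26a would include any made from a further gene with the same mature sequence, so its 8.93 and its place hold for the named arms and not for 1 hairpin with certainty. Passenger shares of the 2 pairs of arms differed by more than the whole range seen between libraries. In both, the major arm began with U and the minor arm with C. Over the 200 hairpins 47.5% of major arms began with U (T in the table) and 28.5% of minor arms with C, and the 5p arm was the major one in 51.0%.

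**Figure D4:**
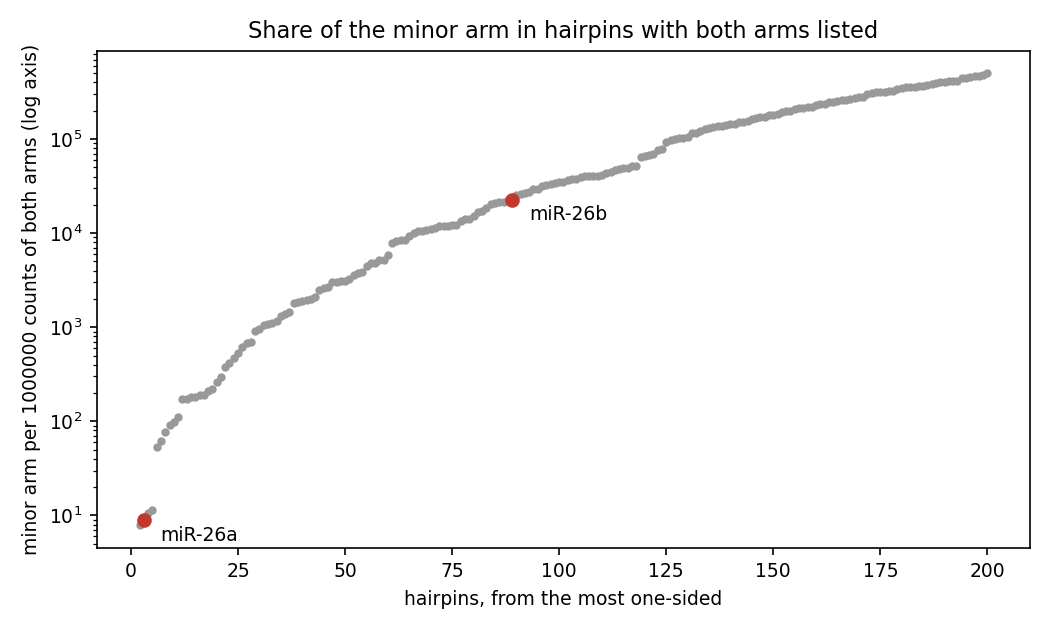
Minor-arm counts per 1000000 counts of both arms (log axis), summed over 9 libraries, for hairpins ordered from the most one-sided, with grey points for single hairpins and red points for miR-26a and miR-26b. MiR-26a is in place 3 of 200 at 8.93 per 1000000 and miR-26b in place 89 at 22720 per 1000000; miR-133b, whose minor arm is listed at 0, is not drawn.

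The 2 guides varied little between libraries. The coefficient of variation (SD as a percent of the mean) over all 9 libraries was 5.48% for miR-26a-5p and 5.58% for miR-26b-5p, in places 8 and 9 from the steadiest of 469 miRNAs. The median was 14.8% for all tested miRNAs and 10.8% for the 70 at 1000 CPM or more. With TMM-scaled levels miR-26b-5p stayed at 5.80%, in place 12, while miR-26a-5p was at 8.01%, in place 58. Leaving out each library in turn placed miR-26a-5p between 3 and 22 and miR-26b-5p between 4 and 23 on the CPM scale. Counting error alone would give 0.0883% and 1.23%, so nearly all of this spread lies above it. MiR-26b-3p had 14.0%, against 8.10% from counting, and miR-26a-3p had 82.1%, against 41.6%.

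**Figure D5:**
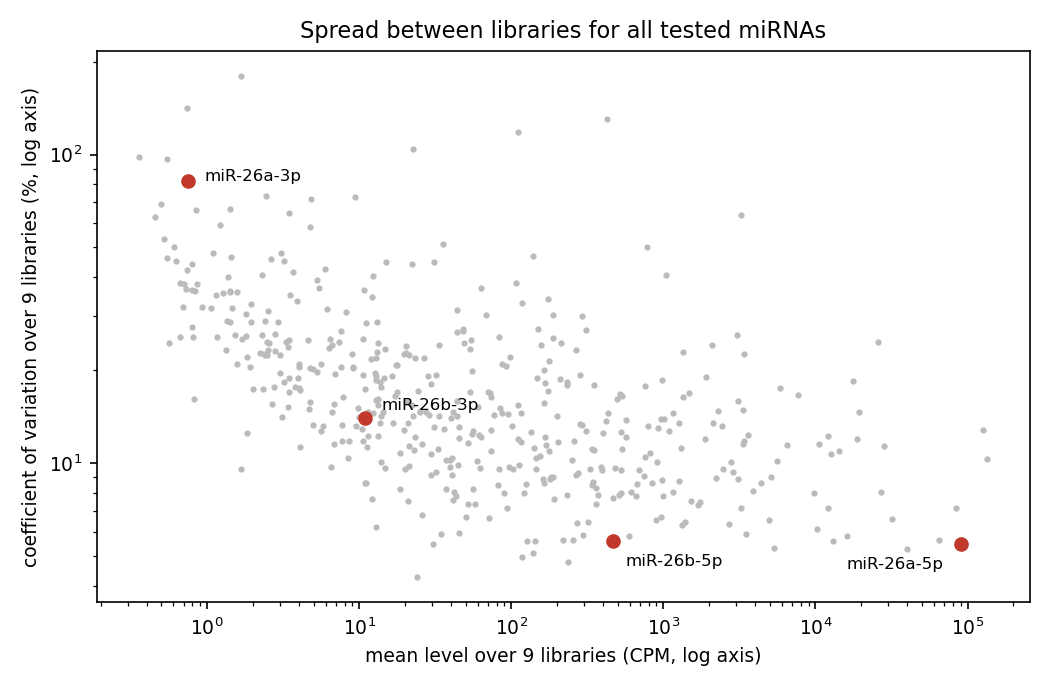
Coefficient of variation over 9 libraries (percent, log axis) against mean level (CPM, log axis) for 469 tested miRNAs, with grey points for single miRNAs and red points for the miR-26 members. The 5p members lie at the lower edge at 5.48% and 5.58%, and miR-26a-3p lies at 82.1% among the least abundant miRNAs.

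The miRNAs whose log2(CPM + 1) values followed each member most closely over the 9 libraries were sought among the 333 with a mean of at least 10 CPM. For miR-26a-5p they were miR-423-5p (Pearson r = 0.88), miR-423-3p (0.85), miR-3586-3p (0.83), miR-674-3p (0.82) and miR-151-3p (0.81). MiR-26b-5p had lower values, led by miR-146a-5p (0.73), miR-338-5p (0.69), miR-181b-5p (0.68), miR-674-5p (0.68) and miR-219a-2-3p (0.63). For miR-26b-3p the leading miRNAs were miR-92a-3p (0.91), miR-3065-3p (0.91), miR-872-5p (0.91), miR-219a-2-3p (0.90) and miR-181b-5p (0.90). MiR-26a-3p was closest to miR-187-3p (0.85), let-7f-5p (0.85), miR-326-3p (0.85), miR-500-3p (0.85) and miR-221-3p (0.84), on counts of 1 to 39. The guides shared none of these 5 closest miRNAs, whereas miR-26b-5p and miR-26b-3p shared miR-181b-5p and miR-219a-2-3p. Compared directly, miR-26b-3p had a Pearson correlation of 0.43 with its own guide and 0.70 with miR-26a-5p. MiR-26a-3p had -0.47 with its own guide, 0.05 with miR-26b-5p and -0.62 with miR-26b-3p. All these correlations describe 9 libraries that share group, depth and total. The 5 closest miRNAs were taken as the largest of 332 or 333 values each.

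Genes of several miRNAs are reported as targets of the repressor REST, with which the Ctdsp phosphatases act. Of these miRNAs 10 were followed as the circuit around miR-26. They were miR-9a-5p, miR-9a-3p, miR-124-3p, miR-132-3p, miR-212-3p, miR-29a-3p, miR-29b-3p, miR-137-3p, miR-153-3p and miR-218a-5p. All 10 were tested and 0 passed the adjusted threshold in edgeR in any comparison. For MK-801 against VEH 6 had values above 0 and 4 below, with a median log2 fold change of 0.06 against -0.02 for all miRNAs. With upper-quartile factors 10 lay above 0, where the median of all miRNAs moved to 0.07. When the 5 most abundant miRNAs outside the family were left out of the scaling, 9 lay above 0. Those 5 include miR-9a-5p, itself on this list, and no median of all miRNAs was taken for that scaling. For MK-801+CLO against MK-801 there were 5 on each side (median 0.0027, and -0.0044 for all miRNAs), or 3 above and 7 below with upper-quartile factors, where the median of all miRNAs was -0.12. For MK-801+CLO against VEH 6 lay above and 4 below (median 0.10 against 0.0034 for all miRNAs), and 5 on each side with upper-quartile factors or library totals.

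In that last comparison 2 of the 10 had an unadjusted p under 0.05, against 14.9% of all tested miRNAs, namely the activity-induced miR-132-3p (log2 fold change 0.42, edgeR adjusted p = 0.256) and miR-212-3p of the same cluster (0.30, edgeR adjusted p = 0.256). MiR-212-3p was the 1 of these 10 at that level for clozapine relative to MK-801 (0.32, unadjusted p of 0.0220, edgeR adjusted p = 0.526), where 8.32% of all miRNAs were. Neither miR-132-3p nor miR-212-3p separated the groups. In MK-801+CLO replicate 2 miR-132-3p was at 1574 CPM, within its VEH range of 1512 to 1815 CPM. There miR-212-3p was at 502 CPM, within its ranges of 467 to 537 CPM in VEH and 465 to 513 CPM in MK-801. For MK-801+CLO against VEH miR-9a-5p, a neural miRNA next to miR-26a-5p in abundance, was at -0.07 and miR-124-3p, of neurons, at 0.22. As a check of the tissue, 4 miRNAs used as neuronal markers (miR-124-3p, miR-9a-5p, miR-128-3p and miR-138-5p) summed to 119416 to 147081 CPM over the 9 libraries, with none at 0. Most of that sum was miR-9a-5p, at 73353 to 91869 CPM, while miR-124-3p was at 2867 to 3862 CPM. Among markers of other cells, 4 vascular miRNAs (miR-126a-3p, miR-126a-5p, miR-143-3p and miR-145-5p) summed to 21837 to 25137 CPM in VEH, 22711 to 24163 CPM in MK-801 and 25681 to 30246 CPM in MK-801+CLO. The sums of 4 red blood cell miRNAs were 3071 to 3563, 2710 to 3091 and 2973 to 3268 CPM in the same order. Those of 3 oligodendrocyte miRNAs were 3686 to 4910, 3811 to 6184 and 3738 to 5925 CPM, and those of 5 leukocyte and microglia miRNAs 798 to 953, 802 to 834 and 909 to 1128 CPM. Over all libraries most of the vascular sum was miR-143-3p (2450951 counts). Of the 4 vascular miRNAs 3 were higher and 1 was lower for MK-801+CLO against VEH. Those 3 had an unadjusted p under 0.05 (edgeR), as had 14.9% of all tested miRNAs, and 0 of the 4 passed the adjusted threshold. No marker was at 0 in any library, and the part of the markers in the miR-26 values was not tested.

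MiR-384-5p, the partner of miR-26a in long-term potentiation, was at 963, 954 and 866 CPM in VEH and at 1119, 1070 and 1044 CPM in MK-801. Every MK-801 library lay above every VEH library, as was the case for 5.97% of tested miRNAs in that direction. The log2 fold change was 0.24, with an unadjusted p of 0.0201 and an edgeR adjusted p of 0.642. With clozapine it stood at 1063, 957 and 972 CPM, overlapping both other groups, at log2 fold changes of -0.07 against MK-801 (edgeR adjusted p = 0.802) and 0.16 against VEH (edgeR adjusted p = 0.390). For MK-801 against VEH, miR-26a-5p was at -0.02 beside this 0.24. Whether the 2 miRNAs differed in their response was not tested.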

How the data were processed

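The authors deposited 1 table of whole-number counts per mature miRNA and library, with a second set of columns headed TPM. Those deposited columns equal each count per 1000000 counts of its library (CPM) (largest relative difference 0.000473%), and the sources used here do not give how reads matching several miRNAs were counted. Cutadapt 1.14, Bowtie, DESeq and Rnor_6.0 are named, without roles, per the submitters' processing notes. One split name was rejoined and 21 blank lines dropped. Library totals ran from 10665718 to 18284905 counts, and a count of 3, the limit that a count of 0 allows, was 0.164 to 0.281 CPM.

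Groups and replicate numbers came from the sample titles. The main test was edgeR 4.0.16 (R 4.3.3) on the counts, with filterByExpr (469 miRNAs kept; about 0.672 CPM in at least 3 libraries), TMM factors, 1 mean per group over all 9 libraries, glmQLFit and glmQLFTest, and Benjamini-Hochberg adjustment over all 469. SE is the absolute log2 fold change over the square root of F, and 95% intervals use the fit's degrees of freedom. Single-library intervals are 95% Wilson intervals (SciPy 1.17.1), covering counting error only. The code was tested on simulated counts. No pair of libraries agreed within sampling noise (smallest chi-square per degree of freedom 179).

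Alternatives were DESeq2 1.42.0, limma 3.58.1 (voom, or its trend method with log2(CPM + 1) or with log2(CPM + 0.1) values), other scaling factors (RLE, upper quartile, none), scaling without the 5 most abundant other miRNAs, other filters, a robust fit, the replicate block, the compared libraries alone and each library left out. The spread on TMM-scaled levels was added after seeing the data. Named miRNAs are the members, their neighbours in abundance, the 5 closest in pattern, 10 REST-linked miRNAs, miR-384-5p and marker miRNAs. Members and lists were chosen with earlier results of these data known. Of 633 names, 571 matched RefSeq (GRCr8), including all 4 members.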

Additional observations from a re-analysis of the deposited data

How the results depend on the processing

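No alternative that gave an adjusted p, leaving out single libraries included, brought a miR-26 member past the threshold. DESeq2 gave none for miR-26a-3p in MK-801+CLO against VEH. Signs of changes near 0 turned. For MK-801 against VEH, the log2 fold change of miR-26a-5p became 0.076 with upper-quartile factors, 0.0026 with scaling that left out the 5 most abundant other miRNAs and 0.0085 at 10 CPM or more. That of miR-26b-5p became -0.00077 with library totals. For MK-801+CLO against MK-801, miR-26b-5p became -0.087 with upper-quartile factors, -0.016 with library totals and -0.016 at 10 CPM or more, and against VEH -0.017 with library totals. With single libraries left out, miR-26a-5p ran from -0.069 to 0.029 for MK-801 against VEH, and miR-26b-3p from -0.0025 to 0.27 for MK-801+CLO against MK-801. MiR-26b-5p ran from -0.041 to 0.075, from -0.029 to 0.082 and from -0.016 to 0.079 in the 3 comparisons. The cause was not tested. The count of called miRNAs went from 0 to 1, 2 and 11 with DESeq2. It reached 0 to 1, 0 to 2 and 0 to 7 with libraries left out, the higher values without MK-801 replicate 2, MK-801+CLO replicate 2 and, again, MK-801+CLO replicate 2. MiR-26a-3p could not be fitted at 10 CPM or more, nor in MK-801+CLO against MK-801 with those libraries alone. For the replicate block, same-numbered libraries had correlations of deviations from -0.44 to 0.25, and 2 of 9 were over 0.1, so the numbers were not taken as pairs. The block called 0 miRNAs in each comparison and gave miR-26a-3p -1.95 for MK-801+CLO against VEH (edgeR adjusted p = 0.280). Depth limits miR-26a-3p, at 1 to 39 counts per library, and to a lesser degree miR-26b-3p, at 104 to 206.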
